A study of Sus scrofa with 9 samples.

Results

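PTGS2, also called cyclooxygenase 2 (COX-2), is the inducible prostaglandin synthase, and its nascent transcription was followed through 3 zones of the infarcted pig heart. It is 1 gene of the 3890 genes that could be named, found by its RefSeq accession NM_214321 at 1 listed position. That position lies on chromosome 9 from 140251667 to 140260362 of the pig build susScr3, on the minus strand. Its span of 8695 bp, introns included, holds 3596 bp of exon. The gene was chosen because its level is ordered by zone in these same libraries, so its levels are given as a description, with no test.

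Cyclooxygenases turn arachidonic acid, which phospholipases release from membranes, into prostaglandin H2. Terminal synthases then convert prostaglandin H2 into prostaglandin E2, prostacyclin, thromboxane and related mediators, which act through G protein-coupled receptors. PTGS1 is the constitutive cyclooxygenase, whereas PTGS2 is known for its rapid induction by cytokines, growth factors and other injury signals, and in the injured heart it has been described in both inflammatory and protective roles.

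GRO-seq, in which nuclei extend the RNA held by engaged polymerases with a labelled nucleotide, was applied to myocardium of 3 female farm pigs. Infarction came from a coil in the distal LAD, the coronary artery that supplies the front of the heart, 24 hours before tissue was taken. The groups were ischemic, border zone and healthy myocardium, with 3 libraries each and 1 library of every zone from every pig. The healthy tissue therefore comes from hearts that also carry an infarct, and no animal without a coil is among the 9 libraries. Tissue was dissociated with collagenase into a filtered cell suspension before nuclei were taken, so the libraries hold the nuclei that survived this step, of every cell type present. In such bulk samples fewer cells of a type and less RNA per cell cannot be told apart.

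Depth differed between zones. Library totals, recovered from the values, were 883656 to 2134087 reads in ischemic, 2187977 to 7005976 in border zone and 2730083 to 6531658 in healthy libraries. Levels are RPKM, reads per kilobase of span per 1000000 library reads, and the comparisons use log2(RPKM + 0.1) at the 2384 of 4882 positions whose mean over the libraries reached 0.5 RPKM. A position was called when its adjusted p fell under 0.05 (limma, Benjamini-Hochberg, 2-sided). In ischemic against healthy tissue 27.6% of the positions were called, 442 higher and 217 lower. That split was 337 and 295 with libraries scaled to 1 median and 249 and 251 after quantile normalization. Border zone against healthy tissue gave 6.0%, 138 higher and 5 lower, and ischemic against border zone tissue 1.13%, 4 higher and 23 lower. The median log2 difference over all positions was 0.21, 0.22 and -0.04 in these comparisons. The counts rest in part on single libraries: 362 positions were called in ischemic against healthy tissue without healthy replicate 2 and 412 without healthy replicate 3. For border zone against healthy tissue the count was 36 without border zone replicate 1, 37 without border zone replicate 3, with 63, 42 and 65 without healthy replicates 1 to 3. For ischemic against border zone tissue the count was 1 with ischemic replicate 3 left out, 3, 4 and 0 with the border zone library of pig 1, 2 or 3 left out, and 2, 10 and 0 with the healthy library of pig 1, 2 or 3 left out. At the counts of 0, for healthy and border zone replicate 3, 334 and 300 positions had an unadjusted p under 0.05, and limma-voom on recovered reads called 92 with all libraries.

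PTGS2 was transcribed at a moderately high level in ischemic myocardium, at an intermediate level in the border zone and at a low level in healthy myocardium. The ischemic libraries of pigs 1 to 3 held 5.50, 5.85 and 4.43 RPKM, from 102, 58 and 34 reads. In the border zone the level was 1.81, 1.71 and 1.84 RPKM, from 56, 104 and 35 reads. The healthy libraries held 0.379, 0.571 and 0.247 RPKM, from 9, 17 and 14 reads. All 3 ischemic values lay above all 3 border zone values, and these above all 3 healthy values, so that neighbouring zones did not overlap. The gene was picked for this order, and nothing is read from it here: groups lay apart in the same direction at 28.4% of tested positions for ischemic against healthy, 8.56% for ischemic against border zone and 25.7% for border zone against healthy tissue.

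**Figure D1:**
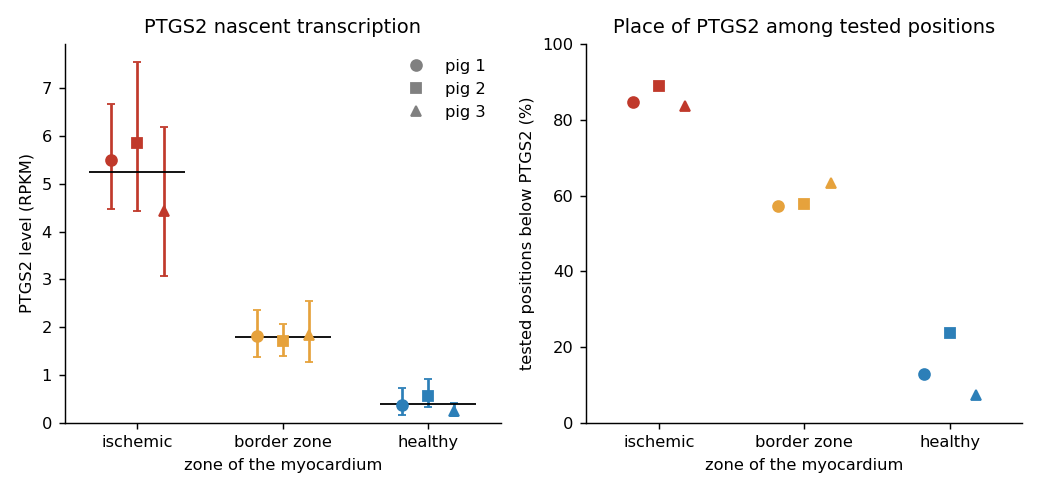
Left, PTGS2 level in RPKM by zone, 1 point per library with its exact 95% counting interval, the marker giving the pig and the line the mean of 3. Right, the share of the 2384 tested positions with a lower RPKM than PTGS2 in the same library. Ischemic libraries sit at 4.43 to 5.85 RPKM, border zone libraries at 1.71 to 1.84 and healthy libraries at 0.247 to 0.571.

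Means were 5.26 ± 0.741 RPKM in ischemic, 1.79 ± 0.0702 in border zone and 0.399 ± 0.163 in healthy tissue (SD, n = 3 each). Each gap between neighbouring zones was larger than the SD of either zone, which is no test, since the gene was picked for this order. The 3 libraries of a zone stand for 3 animals. Counting alone would give a coefficient of variation of 13.3% in ischemic, 13.8% in border zone and 28.8% in healthy tissue, and the observed values were 14.1%, 3.93% and 40.9%. The border zone libraries lay closer together than counting error alone gives on average, and the healthy level was the least precise, resting on 40 reads in all.

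As neighbouring zones did not overlap, their order was necessarily the same within every pig. Ischemic tissue had 14.5, 10.2 and 17.95 times the RPKM of healthy tissue in pigs 1 to 3. Against the border zone of the same heart the ischemic level was 3.03, 3.42 and 2.41 times as high. Border zone tissue had 4.78, 2.99 and 7.46 times the level of healthy tissue. The ratio of ischemic to border zone tissue had the narrowest range over the pigs, and both ratios to healthy tissue carry the small read numbers of that zone.

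With the reads of each zone pooled, ischemic tissue had 14.8 times the PTGS2 level of healthy tissue, with an exact 95% counting interval of 10.5 to 21.4. The pooled ratio was 3.05 (2.49 to 3.74) for ischemic against border zone tissue and 4.85 (3.44 to 7.002) for border zone against healthy tissue. These intervals pool the reads of 3 pigs and leave out the spread between animals. As PTGS2 was picked for this order of zones, they describe counting error and are no test of a rise. In border zone against healthy tissue the ratios of pigs 2 and 3, 2.99 and 7.46, lay outside the pooled interval. Even counting error is covered only if the reads are separate molecules, which is not known. On the log2(RPKM + 0.1) scale the differences were 3.47, 1.496 and 1.97, in the same order. The added 0.1 shrinks the differences that involve healthy tissue, where the level is low, so that the first corresponds to 11.1-fold.

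The place of PTGS2 among the positions of its own library followed the zones. It exceeded 84.6%, 88.8% and 83.7% of the tested positions in the ischemic libraries, 57.3%, 57.8% and 63.3% in the border zone and 12.9%, 23.7% and 7.42% in healthy tissue. Among the 2384 positions its log2 difference ranked 49 from the top in ischemic against healthy, 59 in ischemic against border zone and 169 in border zone against healthy tissue. A rise at each step with no overlap between neighbouring zones, the pattern for which the gene was picked, was present at 61 tested positions, or 2.56%.

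The rest of the eicosanoid pathway did not move as 1 group. A list of 75 further genes covered phospholipases, the other cyclooxygenase, terminal synthases, prostanoid receptors, transport and breakdown, and the leukotriene and P450 branches. The table listed 34 of them and 13 passed the filter on level. In ischemic against healthy tissue 5 of the 13 rose and 3 fell, against 18.5% and 9.1% of all positions, and their median log2 difference was 0.06, against 0.21 for all positions. In border zone against healthy tissue 3 rose and 0 fell, against 5.79% and 0.21% of all positions. The difference between ischemic and border zone tissue passed for 1 of the 13, which fell, against 0.965% of all positions. A gene could pass the filter through its level in 1 zone alone, so these counts do not speak for the 62 genes that were not listed or lay below the filter.

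**Figure D2:**
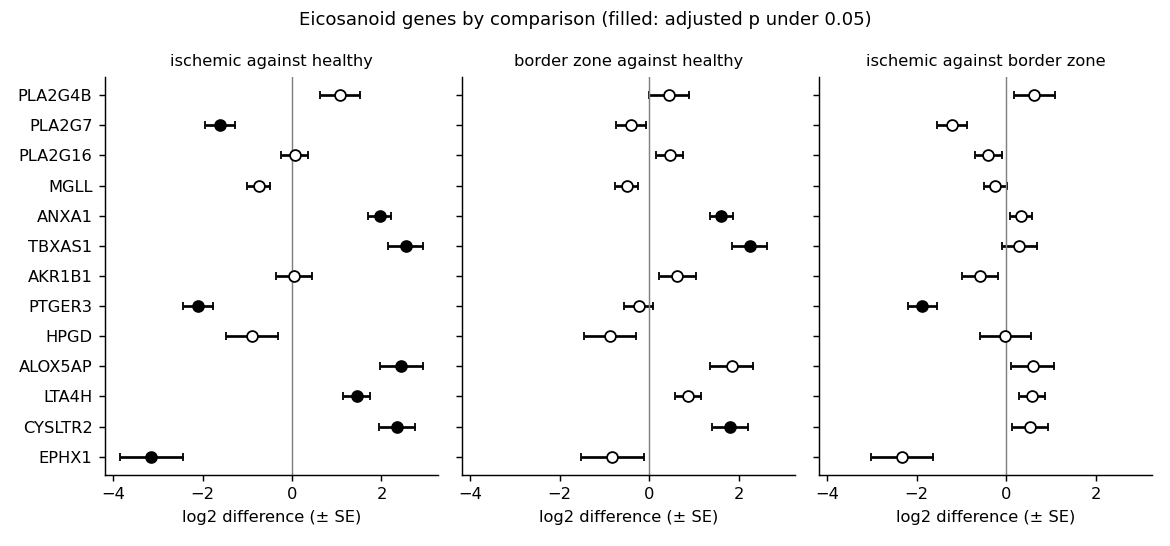
Log2 difference with its standard error for the 13 measured eicosanoid genes in the 3 comparisons, filled where the adjusted p was under 0.05. TBXAS1, CYSLTR2 and ALOX5AP lie at 2.34 to 2.54 in ischemic against healthy tissue, and PTGER3 and EPHX1 at -2.10 and -3.14.

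Among the phospholipases and related genes of the list, ANXA1 and PLA2G7 changed in opposite directions. ANXA1, annexin A1, is a glucocorticoid-induced protein known to restrain phospholipase A2 and leukocyte entry. It had 6.35, 7.29 and 4.71 RPKM in ischemic, 5.32, 3.98 and 5.04 in border zone and 1.77, 1.25 and 1.45 in healthy libraries. It rose in ischemic against healthy tissue (log2 difference 1.96 ± 0.25, SE, adjusted p = 0.00167, limma) and in border zone against healthy tissue (1.62 ± 0.25, adjusted p = 0.00936). The second call missed the threshold without healthy replicate 2 (0.05002), and likewise without the border zone library of pig 1 (0.0567) or of pig 3 (0.0531).

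PLA2G7 encodes the lipoprotein-associated phospholipase that breaks down platelet-activating factor, and it does not supply arachidonic acid in bulk. Its level was 0.747, 0.682 and 1.67 RPKM in ischemic, 2.02, 2.79 and 2.26 in border zone and 3.96, 2.59 and 2.99 in healthy libraries. It fell in ischemic against healthy tissue (-1.61 ± 0.34, adjusted p = 0.0115). MGLL, monoglyceride lipase, which frees arachidonic acid from an endocannabinoid, had -0.75 ± 0.26 and did not pass (adjusted p = 0.061). It passed as lower with median scaling (adjusted p = 0.0402) and by limma-voom (0.0329). PLA2G4B, a cytosolic phospholipase A2, had 1.07 ± 0.45 (adjusted p = 0.109), and PLA2G16, an acyltransferase with phospholipase activity, had 0.06 ± 0.30 (adjusted p = 0.908). PLA2G4A, the cytosolic phospholipase usually coupled to PTGS2, and PTGS1 were not analysed here.

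Of the enzymes that act on prostaglandin H2, the thromboxane synthase gene rose. TBXAS1, on chromosome 18 from 10223766 to 10394083, had 1.56, 0.736 and 1.13 RPKM in ischemic libraries. Border zone libraries held 1.13, 0.565 and 1.03 RPKM, and healthy libraries 0.131, 0.0600 and 0.135 RPKM. Ischemic and border zone values overlapped, and both lay above all healthy values. The log2 difference was 2.54 ± 0.39 for ischemic against healthy (adjusted p = 0.0033) and 2.25 ± 0.39 for border zone against healthy tissue (adjusted p = 0.0175). The border zone call ended when healthy replicate 2 (0.0602), border zone replicate 1 (0.109) or border zone replicate 3 (0.104) was left out, and with quantile normalization (0.115). Macrophages are a usual source of thromboxane synthase, and the summed macrophage markers were 26.2 to 33.9 RPKM in ischemic, 10.7 to 22.1 in border zone and 1.49 to 2.74 in healthy libraries. The part of macrophages in the result was not tested.

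PTGES, the inducible prostaglandin E synthase that is often co-induced with PTGS2, was too weak to pass the filter. It had 0.993, 0.825 and 0.266 RPKM in ischemic libraries from 27, 12 and 3 reads, and 0.133, 0.235 and 0.179 in border zone libraries from 6, 21 and 5 reads. Healthy libraries held 0.172, 0.0687 and 0.192 RPKM from 6, 3 and 16 reads. All ischemic values were above all others, and the lowest of them rested on 3 reads. Without the filter the log2 difference of ischemic against healthy tissue was 1.60 ± 0.46 and missed the threshold (adjusted p = 0.0503, limma).

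AKR1B1, an aldo-keto reductase with prostaglandin F synthase activity, averaged 0.581 ± 0.24 RPKM in ischemic, 0.922 ± 0.384 in border zone and 0.548 ± 0.181 in healthy tissue and did not pass (log2 difference 0.05 ± 0.41 for ischemic against healthy tissue, adjusted p = 0.936). AKR1C1, a related reductase with several near-identical copies, had at most 9 reads in a library at its longest position. PTGDS and CBR1, listed on unplaced sequence, were listed at 0 in every library, which can reflect a position to which reads could not be assigned.

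Prostanoid receptors were represented by PTGER3 and PTGFR. PTGER3, the EP3 receptor for prostaglandin E2, is coupled to inhibition of adenylate cyclase. Its level was 0.493, 0.231 and 0.271 RPKM in ischemic, 1.23, 1.56 and 1.52 in border zone and 1.17, 1.65 and 2.49 in healthy libraries. Border zone and healthy values overlapped, and every ischemic value lay below them. PTGER3 fell in ischemic against healthy tissue (-2.10 ± 0.33, adjusted p = 0.0033) and in ischemic against border zone tissue (-1.87 ± 0.33, adjusted p = 0.0472). The second call ended in the fit blocked on the animal (0.0624) and without any 1 of 8 libraries, all except ischemic replicate 1, with adjusted p of 0.0608 to 0.172. In border zone against healthy tissue the difference was -0.23 ± 0.33 (adjusted p = 0.747).

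The zone in which the EP3 receptor gene was lowest was thus the zone in which PTGS2 was highest, while in the border zone PTGS2 stood above and PTGER3 within the range of healthy tissue. PTGFR, the receptor for prostaglandin F2 alpha, was below the filter. It averaged 0.132 ± 0.0896 RPKM in ischemic, 0.254 ± 0.19 in border zone and 0.473 ± 0.139 in healthy tissue. Without the filter its log2 difference of ischemic against healthy tissue was -1.35 ± 0.47 (adjusted p = 0.0892).

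HPGD, the dehydrogenase that inactivates prostaglandins, varied widely between pigs, with 0.497, 1.43 and 0.277 RPKM in ischemic, 0.437, 1.20 and 0.410 in border zone and 1.29, 1.64 and 0.812 in healthy libraries. It did not pass in ischemic against healthy tissue (-0.89 ± 0.58, adjusted p = 0.284). In ischemic and border zone tissue pig 2 was the highest and pig 3 the lowest, as also in healthy tissue. SLCO2A1, the prostaglandin transporter, is listed at 4 positions, and the longest of them lay below the filter at 0.292 ± 0.0324, 0.222 ± 0.0624 and 0.273 ± 0.0439 RPKM in ischemic, border zone and healthy tissue.

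The leukotriene branch shares arachidonic acid with PTGS2, and its 3 measured genes all rose in ischemic against healthy tissue, as did 18.5% of all positions. ALOX5AP, the 5-lipoxygenase activating protein, had 0.780, 1.52 and 0.984 RPKM in ischemic, 0.958, 0.626 and 0.484 in border zone and 0.235, 0.0221 and 0.133 in healthy libraries. Its log2 difference was 2.45 ± 0.48 (adjusted p = 0.00918). LTA4H, which makes leukotriene B4, had 1.38, 0.774 and 1.36 RPKM in ischemic, 0.773, 0.662 and 0.764 in border zone and 0.347, 0.267 and 0.469 in healthy libraries. It was the single pathway gene of the 13 whose zones stepped without overlap as those of PTGS2 did, against 2.56% of all positions, and its lowest ischemic value and its highest border zone value were 0.774 and 0.773 RPKM. Its log2 difference of ischemic against healthy tissue was 1.44 ± 0.29 (adjusted p = 0.0103).

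CYSLTR2, a receptor for cysteinyl leukotrienes that vascular endothelium carries, averaged 2.35 ± 1.12 RPKM in ischemic, 1.52 ± 0.583 in border zone and 0.347 ± 0.065 in healthy tissue. It rose in ischemic against healthy tissue (2.34 ± 0.41, adjusted p = 0.00516). In border zone against healthy tissue it passed as well (1.81 ± 0.41, adjusted p = 0.0397), which ended on leaving out any of 7 libraries, all except ischemic replicates 2 and 3, with adjusted p of 0.0578 to 0.161.

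EPHX1, the microsomal epoxide hydrolase, fell. Ischemic libraries held 0.0901, 0.506 and 0 RPKM from 3, 9 and 0 reads, border zone libraries 0.740, 2.40 and 0.586, and healthy libraries 1.57, 1.87 and 2.31. The log2 difference of ischemic against healthy tissue was -3.14 ± 0.70 (adjusted p = 0.0142), and it was -3.85 without ischemic replicate 2 and -2.56 without ischemic replicate 3. EPHX2, the soluble hydrolase of epoxyeicosatrienoic acids, was below the filter at 0.344 ± 0.153 RPKM in ischemic, 0.456 ± 0.236 in border zone and 0.552 ± 0.307 in healthy tissue. The 7 other P450 genes of the list reached at most 0.129 RPKM in a library.

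Most measured genes for signals known to induce PTGS2, and for receptors of such signals, were higher in both injured zones than in healthy tissue. Of 14 measured inducers and their receptors 12 rose and 0 fell in ischemic against healthy tissue (18.5% and 9.1% of all positions), and 10 rose and 0 fell in border zone against healthy tissue (5.79% and 0.21%). Their median log2 differences were 3.66 and 2.77, against 0.21 and 0.22 for all positions. LIF, a cytokine of the IL6 family without a read in healthy libraries, lies above both medians also when its healthy level is set to 3 reads over the group. In ischemic against border zone tissue their median was 0.34, and 0 passed by limma, where 1 had an unadjusted p under 0.05 and limma-voom called 0. The list includes cytokine genes that earlier results of these libraries already showed to be high in ischemic tissue, so its count is no independent evidence of direction. The filter also sets the direction in part, since a gene could pass it through its level in the injured zones alone. Healthy means were 0 RPKM for LIF, 0.0347 for IL6 and 0.0557 for AREG. Looked up afterwards, TNF and F2R did not pass in ischemic against healthy tissue (1.64 ± 0.65, adjusted p = 0.0939, and 0.81 ± 0.76, adjusted p = 0.467, limma). In border zone against healthy tissue adjusted p was 0.243 and 0.764 for them, 0.068 for TNFRSF1A and 0.108 for TGFB1 (limma). IFNG, below the filter, had 1 read in ischemic, 34 in border zone and 13 in healthy libraries, and IL17A had none.

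IL1B, interleukin 1 beta, a strong inducer of PTGS2 in many cells, had 30.7, 11.4 and 13.9 RPKM in ischemic, 16.2, 11.7 and 19.9 in border zone and 0.262, 0.167 and 0.197 in healthy libraries. Its ischemic and border zone values overlapped. The log2 difference was 5.80 ± 0.39 for ischemic against healthy (adjusted p = 0.000225) and 5.68 ± 0.39 for border zone against healthy tissue (adjusted p = 0.000327). It was 0.12 ± 0.39 for ischemic against border zone tissue (adjusted p = 0.916), where the PTGS2 difference was 1.496.

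IL1A, interleukin 1 alpha, had 18.8, 7.15 and 8.57 RPKM in ischemic, 12.7, 5.25 and 9.74 in border zone and 0.152, 0.194 and 0.166 in healthy libraries, likewise with overlap of the injured zones. AREG, the EGF receptor ligand amphiregulin, had 4.97, 2.93 and 2.11 RPKM in ischemic, 3.79, 2.89 and 3.32 in border zone and 0.0360, 0.0860 and 0.0451 in healthy libraries, the last from 7 reads in all. HBEGF, heparin-binding EGF-like growth factor, had 7.57, 4.61 and 12.01 RPKM in ischemic, 4.68, 3.77 and 4.85 in border zone and 0.245, 0.251 and 0.395 in healthy libraries. For ischemic against border zone tissue the log2 differences were 0.27 ± 0.43 for IL1A, -0.08 ± 0.32 for AREG and 0.75 ± 0.34 for HBEGF, with adjusted p of 0.808, 0.932 and 0.341. All 4 genes passed as higher in both injured zones against healthy tissue, with adjusted p of 0.000225 to 0.00129. Whether their differences between the injured zones differ from that of PTGS2 was not tested.

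**Figure D3:**
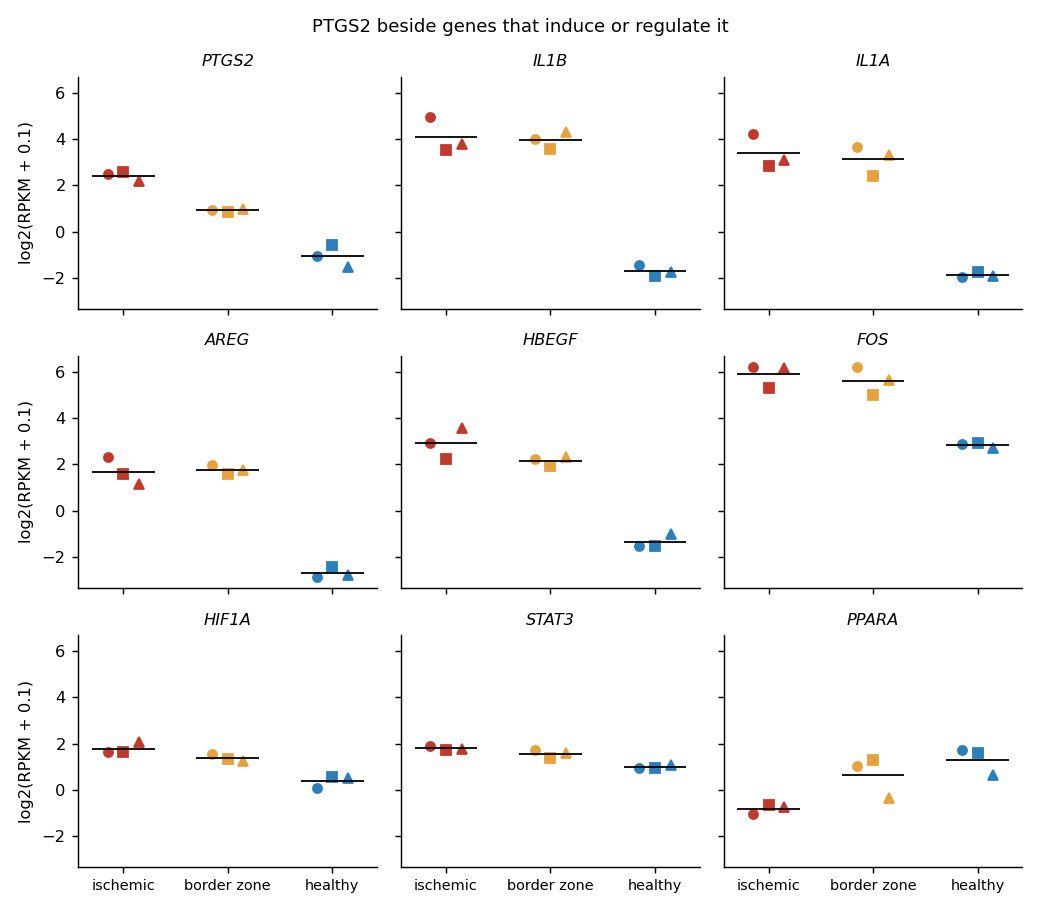
Log2(RPKM + 0.1) per library by zone for PTGS2 and 8 genes that induce it or regulate its transcription, with the mean of 3 libraries as a line. PTGS2 has means of 2.41, 0.92 and -1.06 in ischemic, border zone and healthy tissue, whereas the ischemic and border zone points of IL1B, IL1A, AREG and FOS overlap.

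Of the 14 inducers and receptors, CD14 and IL6 stepped from zone to zone without overlap. CD14 is the lipopolysaccharide coreceptor of monocytes and macrophages, and IL6 is a cytokine. IL6 rested on few reads, 8, 16 and 6 in ischemic, 10, 15 and 8 in border zone and 0, 0 and 3 in healthy libraries. Both were named because of this pattern after their values were seen. For a rise at both steps the share over all positions was 2.56%.

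Transcription factors with known sites in PTGS2 promoters or known effects on the gene were mixed. Their list also held NFKBIA, which encodes an inhibitor of NF-kB. Of 12 genes measured, 5 rose, NFKBIA among them, and 1 fell in ischemic against healthy tissue (18.5% and 9.1% of all positions). In border zone against healthy tissue 2 rose (5.79%). In ischemic against border zone tissue 0 passed by limma, where 2 had an unadjusted p under 0.05, and limma-voom called 0. FOS, a subunit of AP-1, had 75.0, 39.9 and 71.2 RPKM in ischemic, 74.1, 32.3 and 49.9 in border zone and 7.29, 7.58 and 6.53 in healthy libraries. It rose in both injured zones (log2 differences 3.05 ± 0.37 and 2.77 ± 0.37, adjusted p = 0.00141 and 0.00478), whose values overlapped. The AP-1 partner JUN did not pass (0.17 ± 0.30, adjusted p = 0.704) and is named after its values were seen.

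HIF1A, the hypoxia factor, was the single gene of the 12 with a step at each zone, against 2.56% of all positions. Ischemic libraries had 3.00, 3.03 and 4.05 RPKM, border zone libraries 2.84, 2.44 and 2.28, and healthy libraries 0.958, 1.35 and 1.34. It rose in ischemic against healthy tissue (1.39 ± 0.22, adjusted p = 0.0033) and in border zone against healthy tissue (1.00 ± 0.22, adjusted p = 0.0375). The border zone call ended on leaving out any of 7 libraries, all except ischemic replicates 2 and 3, with adjusted p of 0.0501 to 0.156, and with median scaling (0.134).

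STAT3, a factor activated by IL6-type cytokines, rose in ischemic against healthy tissue (0.80 ± 0.18, adjusted p = 0.0149), and missed the threshold without healthy replicate 2 (0.0532) and with quantile normalization (0.0847). PPARA, a nuclear receptor of fatty acid metabolism that is known to restrain inflammatory genes, fell. It had 0.383, 0.526 and 0.494 RPKM in ischemic, 1.95, 2.32 and 0.673 in border zone and 3.16, 2.88 and 1.44 in healthy libraries (-2.13 ± 0.46 for ischemic against healthy tissue, adjusted p = 0.0132). RELA and NFKB1, subunits of NF-kB, had 1.17 ± 0.40 (adjusted p = 0.0603) and 0.82 ± 0.57 (adjusted p = 0.323) in that comparison, values looked up after the list had been counted. NFKBIA, likewise looked up afterwards, passed as higher there (2.23 ± 0.58, adjusted p = 0.0249, limma).

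Factors that act on the stability of PTGS2 mRNA were represented by 5 measured genes, of which 1 rose in ischemic against healthy tissue, a share near the 18.5% of all positions, and 0 passed in the other comparisons by limma, where an unadjusted p under 0.05 was found for 1 gene of the border zone against healthy comparison and for 0 genes between the injured zones. DUSP1, the phosphatase that shuts off p38 MAP kinase and thereby destabilises PTGS2 mRNA, had a log2 difference of 1.35 ± 0.37 (adjusted p = 0.0301). That call was lost without healthy replicates 1 or 2 or any ischemic replicate (adjusted p of 0.0573 to 0.0902), and with quantile normalization (0.234). ZFP36, tristetraprolin, which promotes decay of PTGS2 mRNA, had 1.48 ± 0.59 and did not pass (adjusted p = 0.0932), but did so in the fit blocked on the animal (0.0285). ELAVL1 and PTBP1, RNA-binding proteins, had 0.37 ± 0.22 (adjusted p = 0.238) and 0.60 ± 0.36 (adjusted p = 0.252). GRO-seq reads transcription, so these data hold no measure of PTGS2 mRNA stability.

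Over the 31 measured regulators, inducers and stability factors together, 18 rose and 1 fell in ischemic against healthy tissue (18.5% and 9.1% of all positions), and 12 rose and 0 fell in border zone against healthy tissue (5.79% and 0.21%). In ischemic against border zone tissue 0 passed by limma, against 0.168% of all positions higher and 0.965% lower. There 3 of the 31 had an unadjusted p under 0.05, and limma-voom also called 0. The border zone count was 7 without border zone replicate 1 and 7 without border zone replicate 3. With libraries scaled to 1 median the ischemic counts were 17 and 2. The limits given for the inducers, the filter and the earlier results, hold for these counts too.

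The profile of PTGS2 over the 9 libraries was compared with those of 1986 other genes by the root mean square difference between centred log2 values. The 7 nearest were VCAN, HTR7, CST3, CHI3L1, SHAS2, XCR1 and CXCL2, at 0.36 to 0.57 log2 units, against a median of 1.43 over all genes. These genes were picked for their likeness to PTGS2, so their levels carry no test.

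**Figure D4:**
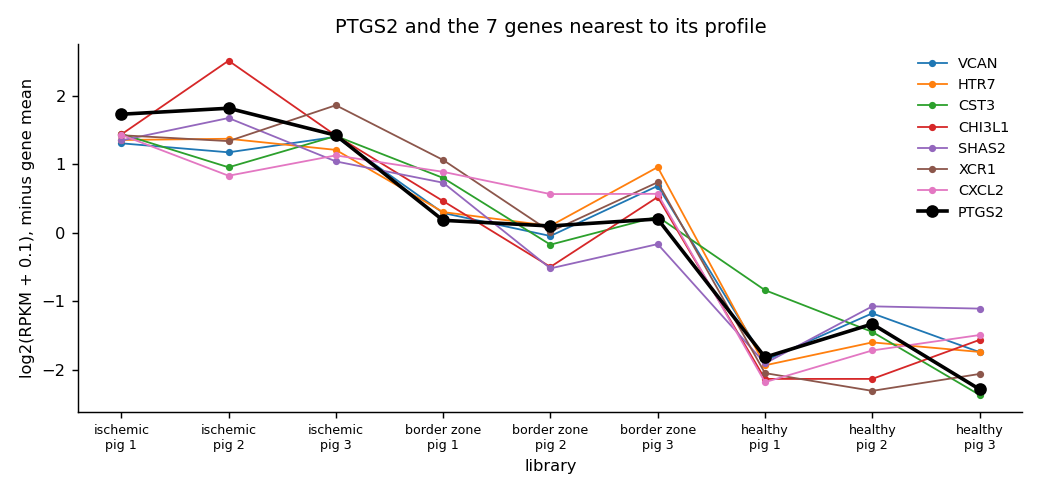
Log2(RPKM + 0.1) minus the mean of each gene over the 9 libraries, for PTGS2 in black and the 7 genes nearest to it, with libraries grouped by zone. The genes fall together from the ischemic to the healthy libraries, and PTGS2 is the flattest of them within the border zone.

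VCAN, the matrix proteoglycan versican, was the nearest, at 3.96 ± 0.317 RPKM in ischemic, 1.99 ± 0.532 in border zone and 0.461 ± 0.15 in healthy tissue. HTR7, a serotonin receptor coupled to cyclic AMP, had 1.60 ± 0.103, 0.866 ± 0.316 and 0.103 ± 0.0234 RPKM in the same order. CST3, cystatin C, an inhibitor of cysteine proteases, had 4.53 ± 0.824, 2.30 ± 0.824 and 0.608 ± 0.347 RPKM. SHAS2, a pig gene with the synonym Has2, hyaluronan synthase, had 1.81 ± 0.419, 0.697 ± 0.374 and 0.196 ± 0.0863 RPKM.

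CHI3L1, a secreted chitinase-like glycoprotein, had 1.52 ± 0.763 RPKM in ischemic and 0.415 ± 0.177 in border zone tissue, and only 3 reads over the healthy libraries. The chemokine receptor XCR1, known from cross-presenting dendritic cells, had 1.78 ± 0.381, 0.912 ± 0.346 and 0.0452 ± 0.0143 RPKM. CXCL2, a neutrophil chemokine, was transcribed at the highest level of the 7, at 24.3 ± 5.02, 17.5 ± 2.36 and 3.12 ± 0.747 RPKM, and alone among them overlapped between ischemic and border zone tissue. The other 6 stepped as PTGS2 did, against 2.56% of all positions, but their choice for likeness to PTGS2 favours this pattern. The choice depended on the measure, since of the 8 nearest by this measure 2 were also among the 8 nearest by Pearson correlation and 2 among those found with a pseudocount of 1.

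No other listed position lay within 1000000 bp of PTGS2. The nearest 3 were those of IVNS1ABP, FAM129A and SMYD2, at 1272536, 1633552 and 1898605 bp. IVNS1ABP, an actin-associated protein, had 2.502, 2.81 and 1.88 RPKM in ischemic, 2.44, 2.71 and 1.68 in border zone and 3.47, 2.46 and 2.09 in healthy libraries, and the zones overlapped.

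Summed markers of some cell types differed between the zones, and those of others overlapped. Of 14 macrophage and monocyte markers 11 were listed, with a summed level of 26.2 to 33.9 RPKM in ischemic, 10.7 to 22.1 in border zone and 1.49 to 2.74 in healthy libraries. CD163 and FCGR3A were at 0 throughout. Their positions span 466 and 214 bp of unplaced sequence, so 0 can reflect reads that could not be assigned there. The 5 neutrophil markers listed summed to 14.4 to 32.1 RPKM in ischemic, 5.89 to 11.9 in border zone and 0.174 to 0.517 in healthy libraries. In both sums the separation of ischemic from border zone tissue rests on 1 marker, left out after the values were seen. Without CD14 the macrophage sum was 10.8 to 19.5 RPKM in ischemic, 6.93 to 12.7 in border zone and 1.21 to 1.56 in healthy libraries, and without S100A8 the neutrophil sum was 4.03 to 23.6, 4.07 to 9.47 and 0.174 to 0.517 RPKM in the same order, so that the injured zones overlapped. Of the single markers, 1 of 7 tested for macrophages (CD14) and 0 of 5 for neutrophils stepped without overlap, against 2.56% of all positions. So did 2 of 8 for fibroblasts (COL1A2 and VCAN), 1 of 4 for endothelium (PECAM1) and 1 of 4 for smooth muscle (TAGLN). For cardiomyocytes it was 0 of 9 and for lymphocytes 0 of 3.

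The 10 cardiomyocyte markers listed ran the other way, from 67.5 to 241 RPKM in ischemic, 161 to 286 in border zone and 343 to 615 in healthy libraries. The injured zones overlapped. CKM, likewise listed on unplaced sequence, was at 0, with the same limit. The 8 fibroblast markers summed to 17.3 to 23.1 RPKM in ischemic, 14.1 to 16.5 in border zone and 9.91 to 12.7 in healthy libraries. VCAN, the gene nearest to PTGS2, is 1 of these 8, and without it the sums were 13.0 to 19.4 RPKM in ischemic, 12.2 to 14.5 in border zone and 9.51 to 12.4 in healthy libraries, with overlap between neighbouring zones. Of the 8 fibroblast markers 3 passed as higher and 0 as lower in ischemic against healthy tissue (18.5% and 9.1% of all positions). They were VCAN, COL1A2 (log2 difference 0.81, adjusted p = 0.0363, limma) and COL3A1 (0.82, adjusted p = 0.0306). DCN and LUM, matrix proteoglycans, had -0.57 (adjusted p = 0.241) and -0.63 (adjusted p = 0.338) and did not pass. For the 5 endothelial markers the sums were 14.4 to 32.3, 8.34 to 18.1 and 6.58 to 8.96 RPKM, and for the 12 lymphocyte markers 4.66 to 6.75, 3.34 to 8.92 and 1.74 to 3.69 RPKM, in the same order of zones and with overlap. The 6 smooth muscle markers had 29.2 to 44.6, 44.3 to 56.5 and 44.1 to 51.3 RPKM, most of it from DES, which heart muscle also transcribes. Without DES they had 7.50 to 8.64, 5.42 to 6.65 and 5.57 to 6.34 RPKM. The part of these cell types in the PTGS2 level was not tested.

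**Figure D5:**
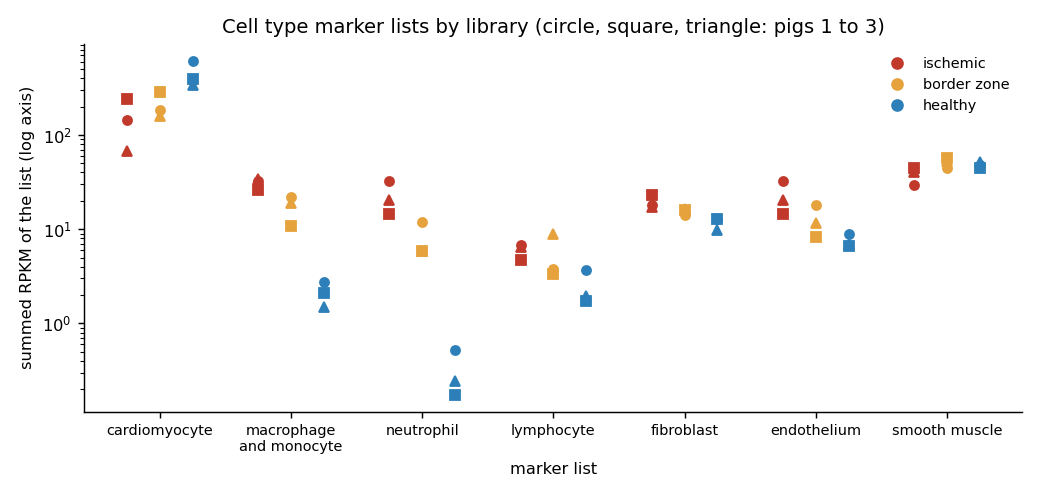
Summed RPKM of each marker list per library on a log axis, coloured by zone, with the marker shape giving the pig. Macrophage sums are 26.2 to 33.9 RPKM in ischemic and 1.49 to 2.74 in healthy libraries, and cardiomyocyte sums 67.5 to 241 and 343 to 615 RPKM.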

How the data were processed

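Reads had been aligned to susScr3 with Bowtie, per the submitters' processing notes, and no version of it is stated there. How reads were counted, by strand or not, and whether duplicates were removed is not stated either. The authors deposited RPKM over the span of each RefSeq position, 1 column per library, which means that intron reads count and that overlapping or antisense transcription cannot be separated. Multiplied by span and library total, 100% of the nonzero values were whole reads within 0.01 reads, and this gave the totals and reads reported. Library totals were 883656 to 7005976 reads.

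Accessions were matched to a Sscrofa11.1 RefSeq table for names only: 4793 of 4882 positions and 3890 genes. Genes with several positions were represented by the longest span, also where it lay below the filter. Models were fitted by limma 3.58.1 (R 4.3.3) to log2(RPKM + 0.1), with the 3 zones as terms, all 9 libraries, and eBayes with trend and robust settings. It was tested on simulated data. Figures and tables were made in Python 3.11.15 with matplotlib 3.10.9, scipy 1.17.1, pandas 2.3.3 and numpy 2.4.6.

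The labels give each pig 1 library per zone, so libraries are paired by animal. Deviations from the zone means correlated at -0.04 to 0.18 between libraries of 1 pig (9 pairs) and at -0.16 to 0.08 between pigs (18 pairs). Pig as a block was an alternative, as were other pseudocounts, filters, scalings, a fit on 2 zones and leaving out each library.

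PTGS2 and the gene lists were chosen with earlier results of these data known. Named genes were PTGS2, the 8 nearest to its profile (1 of them is not reported here), pathway genes past the threshold in any comparison with all listed terminal synthases and receptors, the 4 with the lowest p in ischemic against healthy tissue of each regulator list, and genes within 1000000 bp. Promoter and protein sequences were not used here.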

Additional observations from a re-analysis of the deposited data

How the results depend on the processing

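The order of the zones, for which PTGS2 was picked, was the same under every alternative run. As the zones did not overlap, it could not change with the pseudocount or on leaving out 1 library. Its log2 difference was 2.16, 1.00 and 1.16 with a pseudocount of 1 (ischemic against healthy, border zone against healthy, ischemic against border zone). For ischemic against healthy tissue it was 3.76 with a pseudocount of 0.01 and 3.90 by limma-voom on recovered reads, an alternative chosen after seeing the data. Leaving out 1 library gave 3.23 to 3.71, 1.73 to 2.21 and 1.42 to 1.61. The planned edgeR and DESeq2 fits were not run, because the deposited unit is RPKM.

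Of all positions, 346 were called in ischemic against healthy tissue with the filter at 2 RPKM, which tests fewer positions, and 362 to 698 without 1 library. In border zone against healthy tissue 48 were called with a pseudocount of 1, 95 with no filter, 76 with the filter at 2 RPKM, 84 with median scaling, 85 with quantile normalization, 296 by limma-voom and 36 to 174 without 1 library. In ischemic against border zone tissue these settings gave 10, 3, 21, 8, 5, 92 and 0 to 39, and the fit on 2 zones 1.

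Eicosanoid genes called in ischemic against healthy tissue numbered 2 with the filter at 2 RPKM and 8 without any 1 library. In border zone against healthy tissue they numbered 1 with a pseudocount of 1, with the filter at 2 RPKM or with quantile normalization, and 0 to 3 without 1 library, where 4 or 5 had an unadjusted p under 0.05 at the count of 0. In ischemic against border zone tissue 0 were called with a pseudocount of 1, no filter, the filter at 2 RPKM, median scaling, quantile normalization, pig as a block or 2 zones, 2 by limma-voom, and 0 to 1 without 1 library. Regulators and inducers called in border zone against healthy tissue numbered 7 with a pseudocount of 1 and 7 to 14 without 1 library. PLA2G16 changed sign with median scaling (-0.16), quantile normalization (-0.14) and without healthy replicate 2 (range without 1 library -0.27 to 0.24), and AKR1B1 did so with median scaling (-0.16), quantile normalization (-0.15), without healthy replicate 2 (-0.20) and without ischemic replicate 3 (-0.20; range without 1 library -0.20 to 0.33), both far from the threshold. The cause of these shifts was not tested. With the replicate block, calls changed for PTGER3 (ischemic against border zone, adjusted p = 0.0624) and ZFP36 (adjusted p = 0.0285), and for no other gene followed through the alternatives.

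Healthy tissue held 40 PTGS2 reads in all, which limits every ratio to it, and the ischemic libraries are the shallowest.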

Other observations

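PLA2G1B, a secreted phospholipase A2 known from the pancreas, showed the reverse order of zones below the filter. It was named after its values were seen, and the share of all positions with this falling order was not counted. Its values were 0.0885, 0.0873 and 0.0890 RPKM in ischemic, 0.157, 0.138 and 0.127 in border zone and 0.196, 0.182 and 0.206 in healthy libraries, with no overlap between zones. The listed span is 190709 bp for 497 bp of exon, so the value sums reads over a long stretch of the chromosome. Without the filter its log2 difference of ischemic against healthy tissue was -0.65 ± 0.22 (adjusted p = 0.0892, limma).

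FAM129A, a stress-responsive gene at 1633552 bp from PTGS2, had 1.28, 0.948 and 1.55 RPKM in ischemic, 1.21, 0.789 and 1.66 in border zone and 0.735, 0.387 and 0.484 in healthy libraries. Both injured zones lay above healthy tissue and overlapped each other. It was named after its values were seen.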
